A study of Homo sapiens with 6 samples.

Results

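MYC and the transcription factors that share its partner MAX, known together as the MAX network, were followed in new and total RNA of MOLM-13 cells. The 10 genes examined were MYC, MAX, MXD1, MXI1, MXD3, MXD4, MNT, MGA, MLX and MLXIP. They were chosen by symbol for their place in the network, with earlier results of these data known, and all 10 were found among the 25420 annotated genes of the series.

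MYC binds DNA as a dimer with MAX at E-box sequences such as CACGTG and raises the transcription of genes for ribosome production, metabolism and growth. The MXD proteins, MXI1, MNT and MGA compete for MAX and occupy the same kind of site, where the MXD proteins, MXI1 and MNT bring in SIN3 and histone deacetylase corepressors and MGA brings in a polycomb complex, while MLX pairs with some of these antagonists and with MondoA, the glucose sensor encoded by MLXIP. In acute myeloid leukaemia MYC is a well-known oncogene with a short-lived mRNA, and MXD1 is known as a gene switched on when myeloid cells mature.

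MOLM-13 is an established human cell line from secondary acute myeloid leukaemia. Cells of the C646 group were kept in 10 µM C646, an inhibitor of the acetyltransferases CBP and p300, for 2 h, and cells of the DMSO group were kept in the solvent DMSO, with 3 replicates in each group. All 6 samples received 100 µM 4-thiouridine (4sU), a uridine analogue that is built into new RNA, during the last 1 h, and the study used this design to find genes that depend directly on CBP/p300. After alkylation an incorporated 4sU is sequenced as C. Reads carrying at least 1 T > C conversion, called T > C reads, were taken as new RNA, and all reads of a gene as total RNA. No sample was left without 4sU, so T > C reads that arise without it were not measured, and low shares may include them. The labels do not say whether replicates came from separate cultures, so the p-values measure only the spread between these samples, and all cells were of 1 line.

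Between 7252597 and 10225448 reads fell on annotated 3′ UTRs in each library. T > C reads made up 8.79% ± 0.0637 (SD, n = 3) of them in DMSO and 6.48% ± 0.203 (SD, n = 3) in C646, and the median tested gene had 36 T > C reads in a library. Levels are given as CPM, counts per 1000000 reads on 3′ UTRs, with library totals scaled by TMM. The libraries hold reads from the 3′ ends of transcripts, so that CPM in all reads does not grow with transcript length and can be set side by side between genes. CPM in T > C reads and counts of T > C reads also depend on the T bases of the 3′ UTR, so that between genes they compare reads and not molecules. All 10 myeloid leukaemia markers examined were present at 16.7 (CSF1R) to 3141 (LYZ) CPM, whereas the erythroid markers HBB and ALAS2 had 0 reads, the T cell markers CD3E and CD3G had 0 reads with CD3D at no more than 3.05 CPM, and no marker of B cells, epithelium or stroma passed 6.75 CPM (COL1A1).

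At baseline the 9 members with enough reads differed widely in RNA renewal, from near the lower quartile of all genes to close to the top. In DMSO the T > C share of the reads of MYC was 84%, 85.7% and 83.0%, which was exceeded by 9 of the 8607 genes with at least 50 reads per DMSO library on average. Shares of 58.2%, 60.7% and 63.8% placed MXD1 next, with 116 genes above it. The median gene of the 8607 had a share of 11.6%, and the quartiles were 6.82% and 19.4%. New RNA thus made up most of the reads of the activator MYC and of its antagonist MXD1, and a minority of those of every other member in each DMSO library.

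The remaining antagonists were spread over the scale. MNT had a share of 31.7% ± 1.67 and MGA one of 28.8% ± 5.25 (SD, n = 3 each), above 89.9% and 87.4% of the reference genes. MXI1 stood at 18% ± 0.966 and MXD4 at 6.94% ± 3.62, the latter above 25.7% of genes only. MXD3 had 24 reads per DMSO library, fewer than the minimum of 50, and gave no usable share. Of the partner genes, MAX was renewed at about the pace of the median gene, with shares of 11.9%, 13.3% and 6.74%, and MLX and MLXIP had shares of 19.1% ± 5.94 and 13.3% ± 2.18. In this order MYC lay clear of MXD1, MXD1 of MNT and MXI1 of MLXIP in all libraries, and the other neighbours overlapped.

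The share also depends on how many T bases a 3′ UTR holds, and T makes up 37.6% of the MYC 3′ UTR, 33.6% of that of MXD1, 21.8% of that of MNT and 20.5% of that of MXD4. Counted instead as T > C conversions per 100 sequenced T positions, the order of the first members was the same, with 6.97 ± 0.531 for MYC, 4.67 ± 0.244 for MXD1, 2.29 ± 0.321 for MNT and 2.28 ± 0.461 for MGA (SD, n = 3 each), against a median of 0.779 over the reference genes. Each T > C read of MYC carried 3.56 ± 0.299 conversions in DMSO and 3.04 ± 0.125 in C646. For MXD1 these values were 2.84 ± 0.203 and 2.60 ± 0.117. They differed more for MNT, at 2.07 ± 0.0913 and 1.25 ± 0.292, and for MAX, at 2.31 ± 0.163 and 1.57 ± 0.252, so that the few T > C reads of these genes in C646 carried fewer conversions each (SD, n = 3 each). Means were also lower in C646 for MXI1 (2.28 and 1.81), MGA (2.33 and 1.82) and MLXIP (1.73 and 1.59). They were higher in C646 for MXD4 (1.35 and 1.84) and MLX (2.45 and 2.74), and MXD3 had too few T > C reads.

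**Figure D1:**
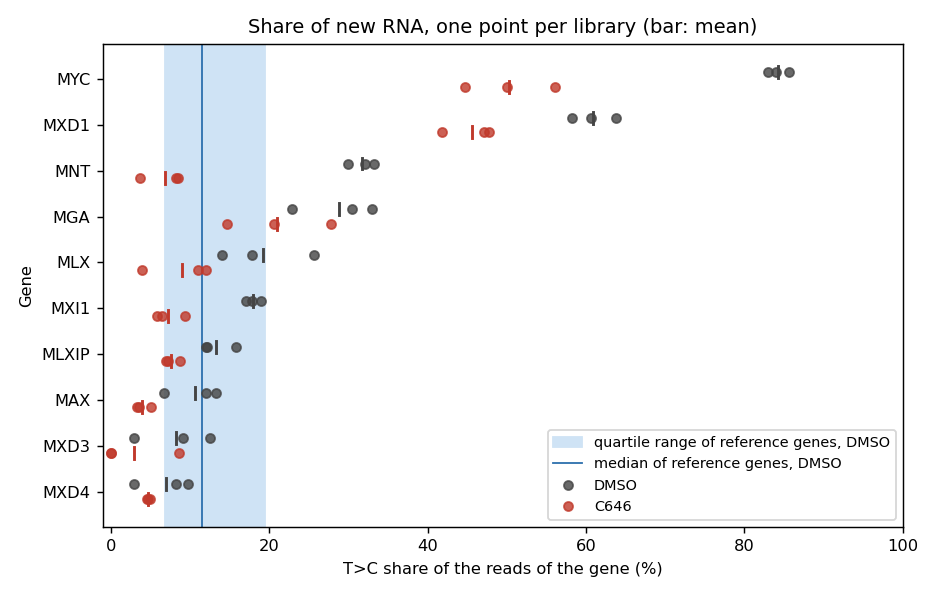
T > C share of the reads of each member (x axis, %), with 1 point per library (black, DMSO; red, C646) and a bar at the mean of each group of 3, in the order of the DMSO means. The blue line and band give the median (11.6%) and quartiles (6.82% and 19.4%) of 8607 reference genes in DMSO; the DMSO points of MYC (83.0% to 85.7%) and MXD1 (58.2% to 63.8%) lie far to the right of the band, and those of MNT move from 29.9% to 33.2% in DMSO into the region of 3.67% to 8.46% in C646.

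After 2 h of C646 the members moved in different directions. New RNA of MYC, MAX, MXI1, MNT and MLXIP was lower than in DMSO, new RNA of MXD1 was higher, and that of MXD4, MGA and MLX was not called. In bulk RNA, fewer cells with a transcript and less of it per cell cannot be told apart. A gene was called where the adjusted p of edgeR's quasi-likelihood test did not exceed 0.01 and the level changed by at least 1 on the log2 scale. In T > C reads 5 of the 9 tested members were thus called lower and 1 higher, where 33% of the 7722 tested genes were called lower and 2.97% higher. In all reads 2 of 10 members were called lower (MYC and MNT) and 1 higher (MXD1), where 1.87% of 10835 tested genes were called lower and 5.92% higher. MXD3 had no more than 3 T > C reads in any library and was not tested for new RNA.

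Lower T > C counts were the rule in this series, and the member values have to be read beside this shared fall. Whether the uridine analogue was built in equally well in both groups was not tested. Weaker labelling would also lower T > C reads and their share, so it was not separated from a fall of new RNA. The median log2 fold change of all 7722 tested genes was −0.83 in T > C reads and −0.0029 in all reads, and that of the members was −1.28 and 0.063. Libraries were scaled by all reads so that this shared fall was kept. Scaling on the T > C reads themselves raised the log2 fold changes by 0.83 (median over 7592 genes). With that scaling MYC, MNT and MXD1 were still called in the same directions, whereas MAX, MXI1 and MLXIP no longer were, at log2 fold changes of −0.33, −0.46 and −0.78. It called 7.6% of 7847 tested genes lower and 9.14% higher.

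**Figure D2:**
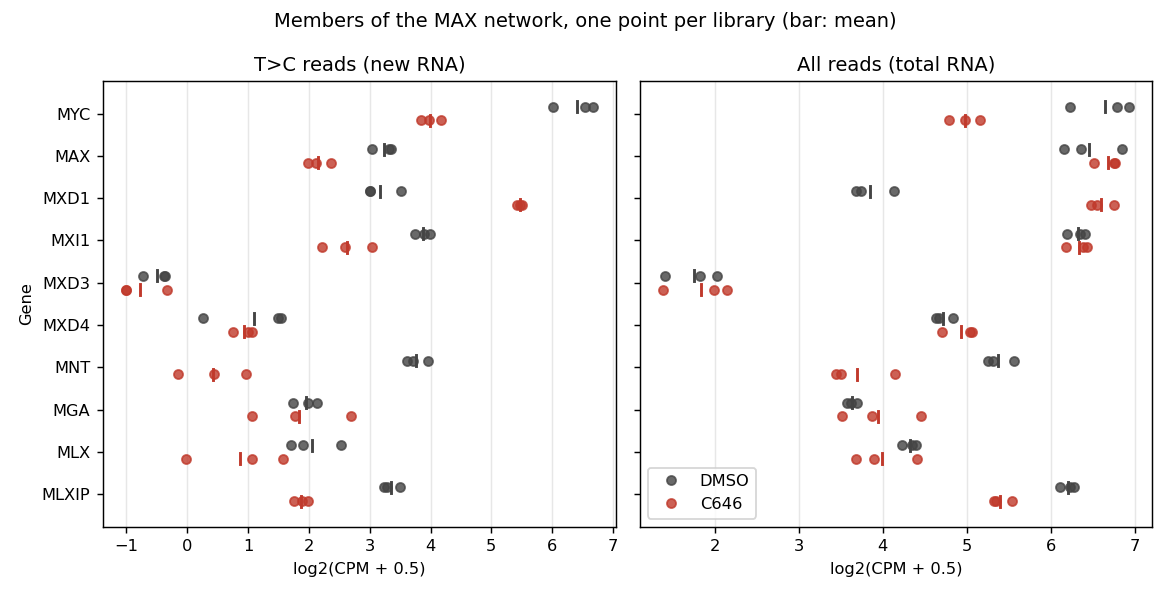
Level of each member as log2(CPM + 0.5) in T > C reads (left) and all reads (right), with 1 point per library (black, DMSO; red, C646) and a bar at the mean of each group of 3. In T > C reads the C646 points of MYC and MNT lie below and those of MXD1 above all DMSO points; in all reads the same holds for these 3 genes, MLXIP is lower by less, and the points of MAX, MXI1, MXD3, MXD4, MGA and MLX overlap between the groups.

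MYC lost most of its new RNA. Its 3′ UTR (GRCh38, chromosome 8, 127740959 to 127741434, plus strand, 476 bases, within an annotated UTR of MYC) held 872, 460 and 748 T > C reads in DMSO against 115, 113 and 177 in C646. In CPM these were 91.9, 63.8 and 101 in DMSO and 15.2, 13.8 and 17.6 in C646. Every C646 library lay below every DMSO library, and the DMSO libraries differed more among themselves than the C646 libraries did. New MYC RNA was 5.49-fold lower (log2 fold change −2.46, SE 0.19, edgeR's quasi-likelihood test, adjusted p = 7.04e-12), and 456 of the 7722 tested genes had a lower value. The log2 fold change with scaling on T > C reads was −1.62.

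Total MYC RNA fell as well. It stood at 109, 74.4 and 121 CPM in DMSO and at 27.1, 31.0 and 35.1 CPM in C646. This was a 3.27-fold decrease (log2 fold change −1.71, SE 0.19, edgeR's quasi-likelihood test, adjusted p = 2.37e-05), and 32 of 10835 tested genes had a lower value. The reads without conversions, a count chosen for comparison after the data were seen, amounted to 17.5, 10.7 and 20.6 CPM in DMSO and 11.9, 17.2 and 17.6 CPM in C646, so that the groups overlapped (log2 fold change −0.064, 95% interval −0.55 to 0.42). The difference in MYC reads between the groups was thus found in the reads with conversions. Reads without conversions cannot be taken as RNA from before C646. C646 was present for 2 h and the label for the last 1 h only. These reads can therefore include RNA made under C646 before labelling, and labelled RNA whose read carried no conversion. What became of MYC RNA made before C646 was not tested.

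The share of new reads of MYC went from 84.2% ± 1.33 in DMSO to 50.3% ± 5.72 in C646 (SD, n = 3 each). The odds that a MYC read was a T > C read, which need no scaling between libraries, were 5.30-fold lower (log2 fold change −2.40, SE 0.26, edgeR's quasi-likelihood test, adjusted p = 1.11e-07). Among all tested genes, 38.3% were called lower and 0.79% higher in these odds, with a median log2 fold change of −1.0, and 4 of the 9 members tested were called lower, MYC, MAX, MXI1 and MNT. Even in C646, the share of MYC was above that of 99.3% of the reference genes. Shares and odds need no scaling but depend on how well the RNA was labelled, and a difference in labelling between the groups was not tested.

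MAX, the partner that MYC and its antagonists share, was lower in new RNA, and its total RNA passed no threshold. Its main 3′ UTR entry (GRCh38, chromosome 14, 65075124 to 65076663, minus strand, 1540 bases) lies in an annotated UTR, of which 13.6% is also coding in some transcripts, and holds 95.3% of the reads of its 7 entries. T > C reads of MAX stood at 9.70, 9.43 and 7.67 CPM in DMSO and at 3.84, 4.66 and 3.47 CPM in C646, with no overlap. The log2 fold change was −1.17 (SE 0.29, edgeR's quasi-likelihood test, adjusted p = 0.0012). Without DMSO replicate 1 it was −1.10 with an adjusted p of 0.0114 in the same edgeR test and was not called, and with scaling on T > C reads it was −0.33.

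All reads of MAX overlapped between the groups, at 81.2, 70.8 and 114 CPM in DMSO and 107, 91.0 and 108 CPM in C646 (log2 fold change 0.20, 95% interval −0.13 to 0.53). The share of new reads fell from 10.7% ± 3.47 to 3.98% ± 1.00 (log2 fold change of the odds −1.50, SE 0.30, edgeR's quasi-likelihood test, adjusted p = 0.00023).

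MXD1 encodes the antagonist that takes MAX away from MYC and recruits SIN3 corepressors, and it was the member that rose. The stretch around its transcription start is shown because no other gene of the 10 members was called higher. It is the RefSeq promoter at chr2:69914859-69915158 (GRCh38.p14, plus strand, 300 bases, 65% G or C), in which the 50 bases from the start site on are in capitals.
MXD1 promoter: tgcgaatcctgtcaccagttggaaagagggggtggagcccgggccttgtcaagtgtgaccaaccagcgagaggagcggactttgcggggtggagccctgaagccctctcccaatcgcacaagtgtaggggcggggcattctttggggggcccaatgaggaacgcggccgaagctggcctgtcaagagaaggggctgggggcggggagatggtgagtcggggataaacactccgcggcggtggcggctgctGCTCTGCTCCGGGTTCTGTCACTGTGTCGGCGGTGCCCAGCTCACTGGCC
The long 3′ UTR of MXD1 (chromosome 2, 69938285 to 69942944, plus strand, 4660 bases) holds 10 copies of the AU-rich pentamer ATTTA, as many as the median of the 677 3′ UTRs of like length (the shorter at least 0.8 times the longer). It has 1 copy of the longer AU-rich heptamer TATTTAT, where 69.3% of these 3′ UTRs have at least 1, and it is shown in capitals in the 30 bases at chr2:69939507-69939536 (GRCh38, plus strand).
MXD1 3′ UTR: tctataaatacTATTTATtcattttatata

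New MXD1 RNA rose in every C646 library. In DMSO 71, 54 and 81 T > C reads were counted, and in C646 320, 358 and 452, which were 7.48, 7.49 and 10.9 CPM in DMSO and 42.3, 43.9 and 44.8 CPM in C646. The C646 libraries were close to each other and all lay far above the highest DMSO library. New MXD1 RNA was 5.08-fold higher (log2 fold change 2.34, SE 0.20, edgeR's quasi-likelihood test, adjusted p = 8.79e-11), and 79 of 7722 tested genes rose more. The log2 fold change with scaling on T > C reads was 3.18.

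Total MXD1 RNA rose as well, from 12.9, 12.3 and 17.1 CPM to 88.6, 93.1 and 107 CPM. The increase was 6.84-fold (log2 fold change 2.77, SE 0.17, edgeR's quasi-likelihood test, adjusted p = 6.37e-08), and 72 of 10835 genes rose more. The MXD1 reads without conversions were 5.38, 4.85 and 6.19 CPM in DMSO and 46.3, 49.3 and 62.3 CPM in C646, with no overlap either. The share of new reads went from 60.9% ± 2.80 to 45.6% ± 3.24 with no overlap. Its log2 odds changed by −0.90 (SE 0.29, edgeR's quasi-likelihood test, adjusted p = 0.0101), just past the limit of 0.01 and below the minimum fold for a call, beside a median of −1.0 over all 7722 tested genes.

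MXI1, a relative of MXD1 that binds MAX and SIN3 in the same way, was lower in new RNA. T > C reads of its 3′ UTR (chromosome 10, 110284988 to 110287365, plus strand, 2378 bases) stood at 13, 15.4 and 14.4 CPM in DMSO and at 5.55, 7.72 and 4.17 CPM in C646, with no overlap. The log2 fold change was −1.30 (SE 0.25, edgeR's quasi-likelihood test, adjusted p = 0.0001025), and −0.46 with scaling on T > C reads. Total MXI1 RNA overlapped between the groups, at 72.7, 81.0 and 84.3 CPM in DMSO and 85.6, 82.6 and 72.1 CPM in C646 (log2 fold change 0.014, 95% interval −0.25 to 0.28). The share of new reads was 18% ± 0.966 in DMSO and 7.21% ± 1.89 in C646, and its odds were called lower (log2 fold change −1.51, SE 0.26, edgeR's quasi-likelihood test, adjusted p = 5.14e-05). In total RNA MXI1 was the more abundant of MXI1 and MXD1 in each DMSO library, and MXD1 the more abundant in each C646 library.

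MXD3 and MXD4, the remaining MXD antagonists, gave little signal. MXD3 (chromosome 5, 177307205 to 177307587, minus strand, a 3′ UTR entry that also lies in the coding sequence of some transcripts) had 34, 22 and 16 reads in DMSO and 16, 32 and 35 reads in C646. Its T > C reads numbered 1, 2 and 2 against 0, 0 and 3, at or under a floor of 3 counts in all libraries, so that no fold was computed for new RNA. MXD4 (chromosome 4, 2247433 to 2250543, minus strand, overlapping the microRNA gene MIR4800 on the same strand) had 22, 5 and 18 T > C reads in DMSO and 9, 13 and 15 in C646, with overlap. The interval of its log2 fold change in new RNA ran from −1.42 to 0.71 and that in all reads from −0.10 to 0.56, so that at this depth a 2-fold fall of new MXD4 RNA could not be told from no change.

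MNT, an antagonist found in most tissues that binds MAX or MLX and recruits SIN3, showed the deepest fall of new RNA among the members. Its 3′ UTR (chromosome 17, 2384060 to 2386900, minus strand, 2841 bases) held 111, 108 and 93 T > C reads in DMSO and 11, 7 and 4 in C646. In CPM these were 11.7, 15.0 and 12.5 in DMSO and 1.45, 0.858 and 0.397 in C646, so that the highest C646 library was far below the lowest DMSO library. New MNT RNA was 14.8-fold lower (log2 fold change −3.89, SE 0.37, edgeR's quasi-likelihood test, adjusted p = 6.96e-10), and 43 of 7722 tested genes fell further. The C646 values rest on few reads, and leaving out single libraries moved the log2 fold change between −4.38 and −3.49. It was −3.06 with scaling on T > C reads.

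Total MNT RNA stood at 39.1, 46.7 and 37.7 CPM in DMSO and at 17.2, 10.4 and 10.8 CPM in C646, with no overlap. It was 3.23-fold lower (log2 fold change −1.69, SE 0.21, edgeR's quasi-likelihood test, adjusted p = 8.09e-05), close to the value of MYC in the same fit. The reads of MNT without conversions were lower too (log2 fold change −1.24, 95% interval −1.67 to −0.82), whereas the interval for those of MYC spanned 0. The share of new MNT reads went from 29.9%, 32.0% and 33.2% to 8.46%, 8.24% and 3.67%. Its odds were 6.31-fold lower (log2 fold change −2.66, SE 0.42, edgeR's quasi-likelihood test, adjusted p = 1.72e-05), and the share moved from above 89.9% of the reference genes in DMSO to above 54.4% of them in C646.

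MGA, the largest protein of the network and the scaffold of the polycomb complex PRC1.6, passed no threshold. Its 3′ UTR (chromosome 15, 41767281 to 41769943, plus strand) held 27, 25 and 29 T > C reads in DMSO and 22, 13 and 60 in C646. In CPM the DMSO libraries lay at 2.85, 3.47 and 3.90 and the C646 libraries at 2.91, 1.59 and 5.95, so that C646 replicates lay both below and above DMSO. The log2 fold change in new RNA was 0.062 with an interval from −0.76 to 0.88, and −0.59 without C646 replicate 3. Total MGA RNA was 12.4, 11.4 and 11.8 CPM in DMSO and 14.2, 10.9 and 21.4 CPM in C646 (log2 fold change 0.39, 95% interval −0.094 to 0.87).

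E-boxes of the form CACGTG, the sequence that MYC and MAX bind, were looked for in the RefSeq promoters of the members (250 bases before to 50 after the start site, GRCh38.p14, both strands), since genes of the network can themselves carry this site. MYC had no entry and was not searched. Entries were found for the 9 other members, 14 promoters in all, and 3 of the 14 (21.4%) held a CACGTG against 7.26% of all 35116 promoters. They were the promoters of MXD4, MNT and MLX, shown here with the E-box in capitals because MNT had the deepest fall among the members. The windows lie at chr4:2262330-2262359 (MXD4, minus strand), chr17:2401236-2401265 (MNT, minus strand) and chr17:42567038-42567067 (MLX, plus strand), with the first base of the E-box at positions −238, −193 and −50 from the start site.
MXD4: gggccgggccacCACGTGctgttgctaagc
MNT: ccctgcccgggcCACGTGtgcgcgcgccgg
MLX: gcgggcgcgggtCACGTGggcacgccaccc
A match of these letters is a description of the sequence and not a binding site. The promoters of MAX, MXD1, MXI1, MXD3, MGA and MLXIP in the table had no CACGTG in this window. A heat shock element, read as GAA, TTC and GAA with 2 free bases after each of the first 2 triplets, was found in 1 of the 14 promoters (MGA) and in 0.49% of all promoters.

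MLX and MLXIP form the branch of the network that answers to glucose. MLX (chromosome 17, 42571604 to 42573203, plus strand) had 50, 20 and 24 T > C reads in DMSO and 12, 4 and 25 in C646. Scaled to CPM, its DMSO libraries lay at 5.27, 2.77 and 3.23 and its C646 libraries at 1.59, 0.490 and 2.48, close to each other but without overlap. The log2 fold change of −1.28 (SE 0.49) was not called (edgeR's quasi-likelihood test, adjusted p = 0.0272), and without C646 replicate 3 it was −1.87 and called with an adjusted p of 0.00473 in the same edgeR test. It was −0.95 without DMSO replicate 1 and −0.88 without C646 replicate 2, where it was not called. Total MLX RNA overlapped between the groups (log2 fold change −0.30, 95% interval −0.72 to 0.12).

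MLXIP, the gene of MondoA, was lower in new RNA, at 10.9, 9.29 and 8.89 CPM in DMSO and 3.44, 3.19 and 2.88 CPM in C646. The groups were well apart and the replicates close together. New RNA was 3.06-fold lower (log2 fold change −1.62, SE 0.29, edgeR's quasi-likelihood test, adjusted p = 3.73e-05), and −0.78 on the log2 scale with scaling on T > C reads. Total MLXIP RNA stood at 68.6, 76.7 and 74.2 CPM in DMSO and at 39.5, 45.7 and 40.1 CPM in C646, with no overlap. Its log2 fold change of −0.81 (SE 0.14, edgeR's quasi-likelihood test, adjusted p = 0.00093) passed the test and not the minimum fold, at 1.75-fold lower. Of the MLXIP reads, 38.6% were counted as multimapped over the 3′ UTR (chromosome 12, 122141813 to 122147347, plus strand, 5535 bases), so that part of them may belong to other places in the genome, whereas the share was below 1% for the other members.

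**Figure D3:**
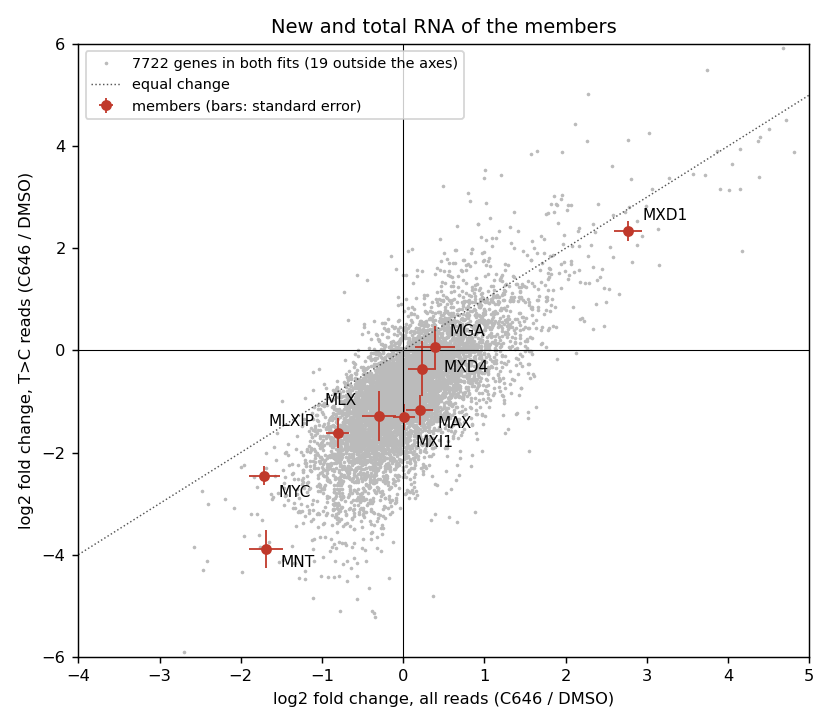
Log2 fold change (C646 over DMSO) in all reads (x axis) against that in T > C reads (y axis) for the 9 members tested in both (red, bars are standard errors) and for 7722 genes (grey, with 19 outside the axes); the dotted line marks equal change. MYC (−1.71, −2.46) and MNT (−1.69, −3.89) lie to the lower left, MXD1 (2.77, 2.34) to the upper right, and the other members lie between −0.81 (MLXIP) and 0.39 (MGA) on the x axis.

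Counted without regard to a threshold, the groups did not overlap in T > C CPM for 7 of the 9 tested members, where this held for 62.3% of the 7722 tested genes. In all reads it held for 4 of the 10 (MYC, MXD1, MNT and MLXIP), where it held for 47.6% of the 10835 tested genes. With this few members, neither count was far from the share over all genes.

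In T > C reads the make-up of the network differed between the groups. These values use reads of the same library only and need no scaling. Of all T > C reads of the 10 members, MYC held 59.2%, 50% and 61.1% in DMSO and 19.6%, 17.8% and 21.0% in C646. MXD1 held 4.82%, 5.87% and 6.61% in DMSO and 54.6%, 56.4% and 53.7% in C646. In each DMSO library MYC had the most T > C reads of the network, and in each C646 library MXD1 had. New MYC reads outnumbered new MXD1 reads 12.3, 8.52 and 9.23 to 1 in DMSO, and in C646 the ratios were 0.359, 0.316 and 0.392.

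In total RNA the share of MYC was lower and that of MXD1 higher in each C646 library, but the leading member was less constant. The most reads of any member came from MYC in DMSO replicates 1 and 3, from MXI1 in DMSO replicate 2, from MAX in C646 replicates 1 and 3 and from MXD1 in C646 replicate 2. MYC made up 24.4%, 17.7% and 24.0% of all reads of the network in DMSO and 6.44%, 7.5% and 7.78% in C646. The share of MXD1 was 2.87%, 2.93% and 3.38% in DMSO and 21.0%, 22.5% and 23.7% in C646. Neither share overlapped between the groups. MYC reads per read of MXD1 were 8.51, 6.03 and 7.09 in DMSO and 0.306, 0.333 and 0.328 in C646. Set against the 6 antagonists together, the ratio of MYC reads in total RNA was 0.648, 0.417 and 0.682 in DMSO and 0.116, 0.133 and 0.142 in C646. The network as a whole had 149 ± 19.4 T > C CPM in DMSO and 79.6 ± 3.39 in C646, and in all reads 458 ± 43.4 and 429 ± 20.0 CPM (SD, n = 3 each).

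**Figure D4:**
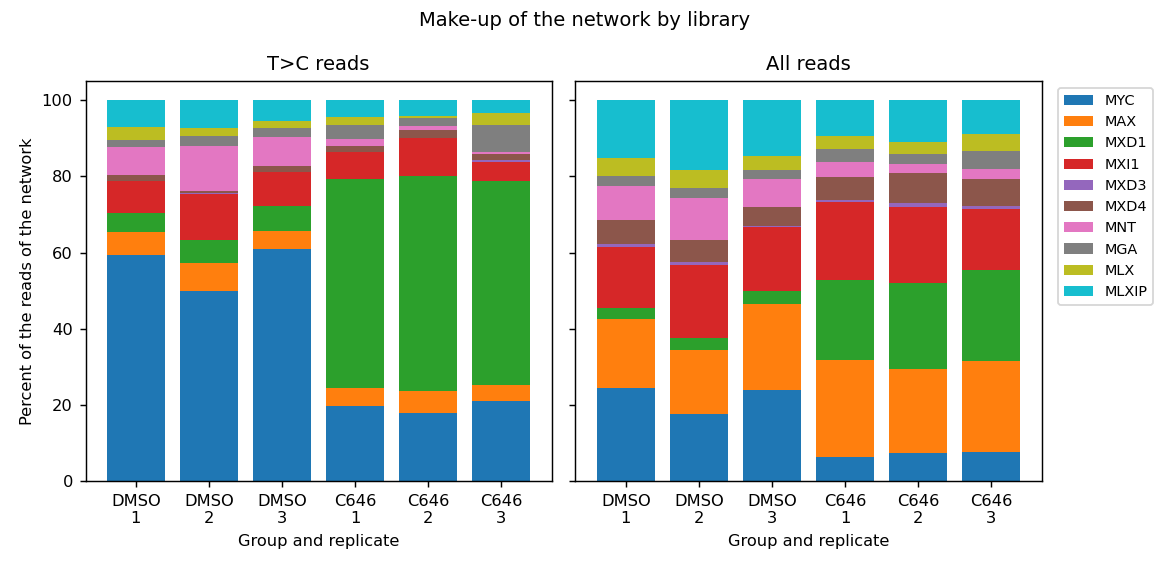
Share of each member (colours) in the T > C reads (left) and in all reads (right) of the 10 members, as stacked bars from 0 to 100% for each of the 3 DMSO and 3 C646 libraries. In T > C reads MYC (blue) takes 50% to 61.1% of the bar in DMSO and 17.8% to 21.0% in C646, and MXD1 (green) 4.82% to 6.61% in DMSO and 53.7% to 56.4% in C646.

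Of the paralogues outside the 10 genes, MYCN had 0 reads and MLXIPL had no more than 3 T > C reads and 108 reads in a library. MYCL, whose protein pairs with MAX as MYC does, stood at 9.44 ± 1.98 CPM in all reads in DMSO and at 20.6 ± 3.58 in C646 and was called higher (log2 fold change 1.12, SE 0.22, edgeR's quasi-likelihood test, adjusted p = 0.00216). Its new RNA was not called, with a log2 fold change of 0.53 (SE 0.33), and was called higher at 1.36 with scaling on T > C reads.

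Target genes of MYC, a list of 57 genes that was written from general knowledge, had lower new RNA in most cases. The list holds genes for ribosome production, nucleotide and polyamine synthesis, DNA replication, the cell cycle and other tasks. Of 52 tested, 35 (67.3%) were called lower and 2 higher, beside 33% and 2.97% of all tested genes, and the median log2 fold change was −1.66 beside −0.83. With scaling on T > C reads 18 of 53 were called lower and 4 higher, with a median of −0.82, beside 7.6% and 9.14% of all genes tested with that scaling and their median of 0.011. Among the members of the list with a mean T > C count of 50 or more, SRM, the spermidine synthase, and DCTPP1, a nucleotide pyrophosphatase, fell most. New SRM RNA went from 27.8 ± 4.2 to 2.17 ± 0.507 CPM (SD, n = 3 each, log2 fold change −3.65, SE 0.26, edgeR's quasi-likelihood test, adjusted p = 1.31e-12). New DCTPP1 RNA went from 21.6 ± 5.07 to 2.56 ± 1.18 CPM (log2 fold change −3.08, SE 0.29).

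The 2 target genes called higher were HSPE1 and HSPD1, which encode the mitochondrial chaperonins and are also known as heat shock genes. New HSPE1 RNA rose from 16.3 ± 4.10 to 98.8 ± 3.44 CPM (log2 fold change 2.59, SE 0.18), and that of HSPD1, with 14.7% multimapped reads, from 49.1 ± 10.6 to 168 ± 3.05 CPM (log2 fold change 1.77, SE 0.16). In total RNA 4 of 56 tested target genes were called lower (PPAN, PPRC1, SRM and TBRG4) and 6 higher (HSPE1, MPHOSPH10, PRMT3, SUPV3L1, TFB2M and UTP20), beside 1.87% and 5.92% of all genes. The median log2 fold change of the target genes in total RNA was −0.18.

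The targets of MondoA and MLX on the list, TXNIP and ARRDC4, were not called in new RNA. TXNIP, the thioredoxin-interacting protein that is their best-known target, had 229 ± 20.0 T > C CPM in DMSO and 195 ± 41.8 in C646 (log2 fold change −0.23, SE 0.14), and ARRDC4 had 2.01 ± 0.176 and 1.66 ± 1.01. Total RNA of these genes was not called either. The odds that a TXNIP read was a T > C read, which need no scaling, were called lower (log2 fold change −1.14, SE 0.14, edgeR's quasi-likelihood test, adjusted p = 7.26e-07), as for 38.3% of all tested genes, and those of ARRDC4 were not. With scaling on T > C reads the direction of TXNIP turned, to 0.60, and that of ARRDC4 to 0.56.

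Coactivators and corepressors of the network were called lower in new RNA about as often as genes at large, of which 33% were called lower, 2.97% were called higher and the median log2 fold change was −0.83. Of 9 tested coactivators of MYC 3 were called lower in new RNA and 0 higher (median −1.04), namely RUVBL2, an ATPase, at −1.22 (SE 0.30), HCFC1, a subunit of histone methyltransferase complexes, at −1.58 (SE 0.23), and WDR5, which anchors MYC to chromatin, at −1.22 (SE 0.28). RUVBL2 was not among the genes called when C646 replicate 3 was left out, which left 2. BPTF and the acetyltransferase KAT5 had values of −0.59 and −0.50 and were not called. Of 7 tested SIN3 and histone deacetylase corepressors 2 were called lower and 0 higher (median −0.71), and SIN3A alone was called when any of the 6 libraries was left out. SIN3A, the scaffold through which MXD1, MXI1 and MNT repress, fell from 25.5 ± 1.90 to 3.75 ± 0.796 T > C CPM (log2 fold change −2.77, SE 0.24, edgeR's quasi-likelihood test, adjusted p = 9.69e-11), whereas HDAC2 (−0.71) and HDAC1 (−0.21) were not called. Total SIN3A RNA was not called (log2 fold change −0.34, SE 0.15). With scaling on T > C reads SIN3A was at −1.94 and still called, HCFC1 and WDR5 were not, no coactivator was called lower and 1, KAT2A, was called higher, beside 7.6% lower and 9.14% higher of all genes tested with that scaling.

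Of 6 tested subunits of the MGA complex PRC1.6 3 were called lower and 1 higher in new RNA (median −0.98), beside 33% lower and 2.97% higher of all tested genes with a median of −0.83. RYBP was called higher (2.05, SE 0.19), and its reads were 90.3% multimapped, so that the value may include other copies. E2F6 (−1.10, SE 0.25, with 30.1% multimapped reads), YAF2 (−1.29, SE 0.36) and L3MBTL2 (−2.03, SE 0.58) were called lower and TFDP1 was not (−0.77). The calls of lower depended on single libraries. Without DMSO replicate 1, 0 were left, beside 24.9% of all genes. Only E2F6 was left without DMSO replicate 3, beside 26.2%, and only YAF2 without C646 replicate 1, beside 29.8%. With each library left out, 1 gene of the list was called higher. None of the 6 was called lower with scaling on T > C reads, and RYBP was called higher at 2.89. That scaling called 7.6% of all genes lower and 9.14% higher.

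Regulators of MYC protein turnover were lower in new RNA in 5 of 10 tested cases and higher in 0 (median −1.31), beside the same 33% and −0.83 of all tested genes. USP36, a nucleolar deubiquitinase that stabilizes MYC, had 11.8 ± 3.48 T > C CPM in DMSO and 0.536 ± 0.425 in C646 (log2 fold change −4.42, SE 0.42, edgeR's quasi-likelihood test, adjusted p = 9.88e-10). In total RNA it was the 1 gene called lower of 12 tested from this list (−1.01, SE 0.18), beside 1.87% of all tested genes. FBXW7, the ubiquitin ligase subunit that marks MYC for degradation, went from 20.9 ± 4.09 to 4.44 ± 1.74 T > C CPM (log2 fold change −2.21, SE 0.26), and AURKA, a kinase known to stabilize MYCN protein, was called lower at −1.59 (SE 0.25). The ubiquitin ligase STUB1 was also called lower (−2.32). Genes known to stabilize and to destabilize MYC protein were thus both among those with less new RNA. With scaling on T > C reads 2 of 10, USP36 (−3.60) and FBXW7 (−1.38), were called lower, beside 7.6% of all genes tested with that scaling. Of 3 tested proteins that bind MYC mRNA, ELAVL1 was called lower (−1.73, SE 0.25) and IGF2BP2 (−0.81) and HNRNPD (−0.12) were not. IGF2BP3 joined it when DMSO replicate 3 or C646 replicate 1 was left out, with 2 called, and with scaling on T > C reads ELAVL1 was at −0.89 and none of the list was called.

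The genes whose 12 values (T > C and all reads in 6 libraries, as log2 CPM relative to the DMSO mean) were nearest to those of MYC were picked for this likeness among 2842 genes, each with a mean T > C count of 50 or more. They were TWNK, the mitochondrial DNA helicase, with a root mean square difference of 0.318, CCR1, a chemokine receptor (0.322), IER2, an immediate early gene (0.372), CDC25A, a cell cycle phosphatase (0.382), and HJURP, a centromere histone chaperone (0.392). Their log2 fold changes were between −3.02 and −2.34 in T > C reads and between −1.62 and −1.26 in all reads. Their DMSO shares of new reads ranged from 29.3% ± 0.936 for TWNK to 61.8% ± 4.48 for IER2, all below the share of MYC.

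The 3′ UTRs of the members with high and low renewal were read for 3 short motifs in GRCh38. MYC has 4 copies of the pentamer ATTTA in its 476 bases, a number reached by 3.15% of the 889 3′ UTRs of like length, and 2 copies of the Pumilio motif TGTANATA, reached by 1.91%, but 0 of the heptamer TATTTAT. The Pumilio motif also occurs 2 times in MAX, reached by 7.94% of its 1361 3′ UTRs of like length, and 2 times each in MGA (14.3%) and MXD1 (25.3%) and at most 1 time in the other members. The heptamer occurs 1 time each in MAX, MGA and MXD1. MNT has 0 copies of ATTTA in 2841 bases, where 96.7% of 1233 3′ UTRs of like length have at least 1, and MXD4 has 0 copies in 3111 bases, where 96.9% of 1176 have at least 1. MAX (3), MXI1 (4), MGA (4) and MLX (2) were at or below the median for their length, and MLXIP, with 3 copies, was below it. MNT, with the third highest share of new reads, and MXD4, with one of the lowest, were thus alike in lacking the pentamer.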

How the data were processed

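New and total RNA were measured by SLAM-seq in 3 DMSO and 3 C646 samples, grouped by the treatment in the labels. The authors aligned reads to GRCh38 (SLAM-Dunk v0.4.1, default settings). They deposited raw counts of reads, T > C reads, conversions and multimapped reads for 58136 annotated 3′ UTRs under Entrez identifiers. As a signal, they deposited the coverage summed over T positions, without normalization. The authors tested reads with at least 2 conversions, whereas the deposited T > C reads include reads with 1. Symbols were matched for 25310 of 25420 genes. The T content of all 8608 UTRs compared equalled that of GRCh38.

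Counts were summed per gene. Differential expression was tested with edgeR 4.0.16 (glmQLFit, glmQLFTest) in R 4.3.3, with filterByExpr and Benjamini-Hochberg adjustment over all tested genes. T > C reads were scaled by the TMM-scaled totals of all reads. For the odds, T > C reads and the remaining reads of a gene entered a joint fit with library terms. Calls needed an adjusted p not above 0.01 and a change of 1 or more on the log2 scale. Standard errors were derived from the fold change and the F statistic, and 95% intervals from the standard error under a normal distribution. The code was tested on simulated data. Reads are PCR copies without molecular identifiers, so counting precision covers sampling only. Replicates differed by 7.51 to 25.9 times the variance expected from counting alone, and no library was dropped.

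The members and gene lists were chosen with earlier results of these data known. Named are all members, all tested genes of lists of at most 5, the 2 lowest and 2 highest in T > C reads of longer lists (mean T > C count of 50 or more), and the 5 genes most like MYC. MYC targets called in total RNA, RUVBL2, YAF2, L3MBTL2, STUB1, KAT2A and IGF2BP3 were named after their values were seen. Some genes of the lists are counted but not reported here. Alternatives were other scalings, DESeq2 1.42.0, other filters and cutoffs, only the most covered 3′ UTR of a gene, a replicate block and omission of each library. Summaries used Python 3.11.15, pandas 2.3.3, numpy 2.4.6 and matplotlib 3.10.9. Promoters are from RefSeq (GRCh38.p14). Annotation of 3′ UTRs is from GENCODE release 44.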

Additional observations from a re-analysis of the deposited data

How the results depend on the processing

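MYC, MNT and MXD1 kept their directions and calls in T > C reads and in all reads under every alternative run, except that the reads of MYC without T > C conversions, a setting added after the data were seen, were not called, which left 1 member lower in place of 2. Scaling on T > C reads, by TMM or by DESeq2 size factors, left 2 members called lower in T > C reads in place of 5, because all genes rose together, and turned MXD4 to 0.47 and 0.45. These scalings called 596 and 565 of all genes lower and 717 and 660 higher, against 2548 and 229. An adjusted p of at most 0.05 without a minimum fold called 7 of 9 members lower in the odds in place of 4, beside 60.7% of all tested genes. MXI1 in all reads was at −0.0018 with plain totals.

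With each library left out in turn, 4 to 6 members were called lower and 1 higher in T > C reads, beside 24.9% to 31.8% and 2.52% to 3.15% of all genes. In all reads 2 were called lower and 1 higher, beside 1.07% to 2.88% and 4.03% to 6.56%, and in the odds 4 lower and 0 higher, beside 26.4% to 36% and 0.576% to 0.766%. Log2 fold changes near 0 changed sign, MGA in T > C reads between −0.59 and 0.41, MXD3 in all reads between −0.059 and 0.33 and MXI1 in all reads between −0.045 and 0.085. Without C646 replicate 1, 319 genes were called lower in all reads, and without DMSO replicate 2, 119, against 203. Keeping genes with a mean T > C count of 50 or more left 1038 lower and 125 higher in T > C reads. Reads without conversions gave 93 lower and 847 higher.

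Same-numbered DMSO and C646 samples correlated at 0.030 to 0.065 in T > C reads and −0.0014 to 0.23 in all reads (deviations from group means), so the numbers were not taken to pair samples. With the replicate block, 2586 genes were called lower and 226 higher in T > C reads, MGA was at −0.091, and no count of members called changed by more than 1.5 times. MXD4, MGA and MLX had 4 to 60 T > C reads in a library, which limits the precision of their values.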
